A study of Arabidopsis thaliana with 2 samples.

Results

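The genes described here are 10 loci of the Arabidopsis thaliana cell cycle machinery, chosen by locus identifier: the regulator RBR1 and the factor E2FA, the kinase inhibitors KRP1, KRP2 and KRP6, the cyclins CYCB1;1 and CYCB1;2, the kinase CDKB1;1, and the anaphase-promoting complex activators CCS52A1 and CCS52A2. They were taken from 37899 nuclear loci of the gene table used. The measurement was chromatin immunoprecipitation followed by sequencing (ChIP-seq) of SOG1, the NAC transcription factor of the plant DNA damage response. The tagged library came from whole Col-0 plants that carried ProSOG1:SOG1-Myc (ProSOG:SOG1-Myc in the sample label), a Myc-tagged SOG1 driven by the SOG1 promoter, in a wild-type background. These plants were 2 weeks old and had received 15 µM zeocin, which breaks DNA, for 2 h in liquid MS medium. A library from untagged Col-0 plants of the same age, labelled mock, was its counterpart. Both libraries were precipitated with an anti-Myc antibody. The treatment text of the mock sample also mentions zeocin, and its treatment label was followed. There was 1 library per group, the peak list analysed belongs to the tagged library alone, and values of the mock library were not analysed here.

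Plant cells enter and leave the cell cycle through cyclin-dependent kinases (CDKs), which need a cyclin to be active and which KRP proteins inhibit. RBR1 holds E2F transcription factors in check until CDK activity releases them. CCS52 proteins direct the anaphase-promoting complex, a ubiquitin ligase, to mitotic cyclins, and their activity favours the switch from division to endoreduplication, in which DNA is copied without mitosis. SOG1 is known to bring about cell cycle arrest, endoreduplication and repair after DNA damage.

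Of the 10 genes, 4 were named by the authors for a peak: KRP6, RBR1, CYCB1;1 and CCS52A1. Of all protein-coding loci, 4.99% were named for a peak, and of all nuclear loci 3.91%. Since the genes were picked from this same list with its content known, nothing is read from that difference. E2FA, CYCB1;2, CCS52A2, CDKB1;1, KRP1 and KRP2 had no line in the list. The list holds 778 peaks and each of the 4 genes was named for 1 of them. The fewest reads in a listed peak were 39, at 3.70-fold, and the lowest fold enrichment was 2.49, at 166 reads. The cutoff of the list is not stated, so a gene without a peak has no value here and no upper limit can be given for it. The material was whole plants, so strong occupancy in few cells and weak occupancy in many cannot be told apart.

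KRP6 (AT3G19150), a Kip-related CDK inhibitor, had by far the strongest of the 4 peaks. The peak lay on chromosome 3, from 6615793 to 6618332 in TAIR10, and held 414 reads (exact 95% Poisson interval 375 to 456). The authors' fold enrichment was 12.7, their Decibel Score 983 and their false discovery rate (FDR) 0.182. By fold enrichment the peak ranked 11 of 778. Its fold enrichment was 2.93 times the median of all peaks, which was 4.33.

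RBR1 (AT3G12280), the retinoblastoma-related protein, had a peak of ordinary strength on chromosome 3, from 3923181 to 3923967. It held 86 reads (interval 68.8 to 106), with a fold enrichment of 4.64, a score of 92.7 and an FDR of 0.153. It ranked 295 of 778 by fold enrichment. This was 1.07 times the median of the list.

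CYCB1;1 (AT4G37490), a mitotic B-type cyclin known for its induction by DNA damage, had a peak that matched that of RBR1 closely. It lay on chromosome 4, from 17623793 to 17624595, and held 83 reads (interval 66.1 to 103). The fold enrichment was 4.70, the score 93.0 and the FDR 0.154. Its rank by fold enrichment was 281, and only 12 peaks lay between it and RBR1 on that scale.

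CCS52A1 (AT4G22910, listed as FZR2), which activates the anaphase-promoting complex, had the weakest of the 4 peaks by fold enrichment and the second highest read count. The peak lay on chromosome 4, from 12011385 to 12012889, and held 123 reads (interval 102 to 147). The fold enrichment was 3.21, the score 70.9 (list median 77.7) and the FDR 0.15. It ranked 708 of 778 by fold enrichment, at 0.742 times the median of the list. Of the 4 genes, KRP6, RBR1 and CYCB1;1 were named at the 389 strongest peaks by fold enrichment or by Decibel Score, beside 2.51% of protein-coding loci on either measure, and KRP6 alone at the 194 strongest by fold enrichment, beside 1.3%.

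**Figure D1:**
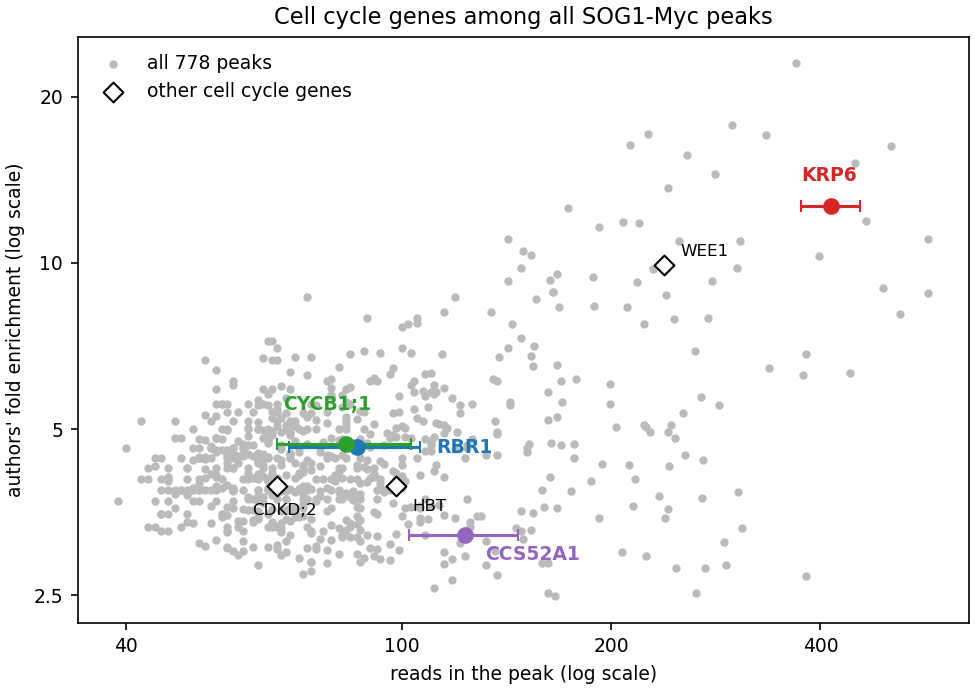
Each of the 778 peaks is a grey point placed by its read count (horizontal log axis) and the authors' fold enrichment (vertical log axis). Coloured points are the peaks of RBR1, KRP6, CYCB1;1 and CCS52A1 with exact 95% Poisson intervals of the reads, and diamonds are the peaks of 3 other cell cycle genes; KRP6 stands at 414 reads and 12.7-fold, whereas RBR1 and CYCB1;1 lie inside the main cloud and CCS52A1 along its lower edge.

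The order by fold enrichment was thus KRP6, CYCB1;1, RBR1 and CCS52A1. KRP6 was 2.70 times CYCB1;1, 2.74 times RBR1 and 3.95 times CCS52A1. With 1 library there is no replicate error for these ratios, and the Poisson intervals cover counting error only. The read interval of KRP6 did not overlap that of any of the other 3 genes. The intervals of RBR1 and CYCB1;1 overlapped over most of their width, so these 2 counts were not distinguished at this depth. The interval of CCS52A1, from 102 reads upwards, touched theirs only at the upper edges, 106 for RBR1 and 103 for CYCB1;1. Among the other peaks of the list, 567 had a read interval that overlapped that of RBR1 and 582 one that overlapped that of CYCB1;1, against 9 for KRP6.

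The 4 peaks also differed in length, over which the reads are summed. The KRP6 peak was 2539 bp long and ranked 15 of 778 by length. The CCS52A1 peak was 1504 bp long and ranked 83. The peaks of RBR1, at 787 bp, and CYCB1;1, at 803 bp, were close to the list median of 837 bp. Per kb of peak, KRP6 held 163 reads (interval 148 to 180) and RBR1 109 (87.4 to 135). CYCB1;1 held 103 reads per kb (82.3 to 128) and CCS52A1 81.8 (68.0 to 97.6), against a median of 88.6 over all peaks. On this scale KRP6 again did not overlap the other 3 genes, and CCS52A1 was the lowest. The interval of CCS52A1 overlapped those of RBR1 and CYCB1;1, and the intervals of these 3 genes all held the list median.

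The rank of CCS52A1 depended most on the measure. It stood at 708 by fold enrichment, at 461 by Decibel Score, at 146 by reads and at 595 by reads per kb. RBR1 kept to 295, 287 and 302 by the first 3 measures and stood at 122 by reads per kb. KRP6 stayed between 9 and 25 by all 4 measures.

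**Figure D2:**
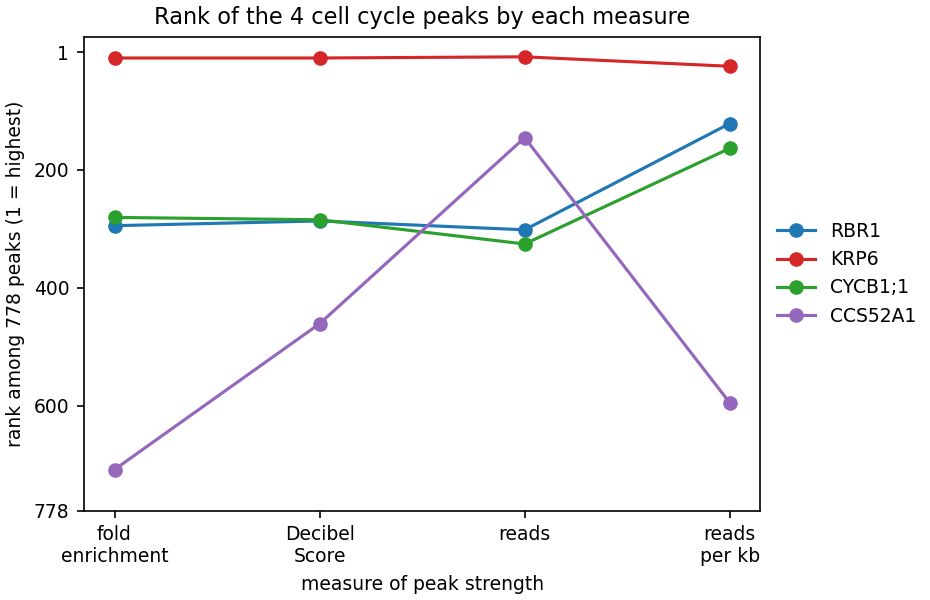
For each of the 4 named genes, the rank of its peak among 778 (vertical axis, 1 is the highest) is plotted for fold enrichment, Decibel Score, reads and reads per kb. KRP6 stays between ranks 9 and 25, RBR1 and CYCB1;1 run side by side, and CCS52A1 moves from 708 by fold enrichment to 146 by reads.

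Each peak was also set against peaks of like length, within 10% of its own. Of 15 other peaks as long as that of KRP6, 1 had a higher fold enrichment, and their median was 4.40-fold. Of 41 other peaks as long as that of CCS52A1, 33 had a higher fold enrichment and 37 had more reads, with medians of 4.54-fold and 162 reads. Of 274 other peaks as long as that of RBR1, 98 had a higher fold enrichment but only 11 had more reads, the median being 67 reads. For CYCB1;1 the counts were 94 and 24 of 264 other peaks. The RBR1 and CYCB1;1 peaks therefore held more reads than most peaks of their length while their fold enrichment was nearer the middle.

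The summit column was read as a distance in bp from the lower coordinate of the peak, an assumption, since the list does not say from which end it counts. It is below the peak length in every line. The CYCB1;1 summit lay at 404 bp, or 50.3% of the peak length, at its middle. The RBR1 summit lay at 482 bp (61.2%). The KRP6 summit lay at 1790 bp, 70.5% of the way along, which left 749 bp on its far side. The CCS52A1 summit lay at 345 bp, or 22.9%, and left 1159 bp beyond it. Over all peaks the median was 51.2%, and the range from the 5th to the 95th percentile ran from 29.2 to 72.4%. CCS52A1 fell outside that range, at percentile 1.74, and ranked 32 of 778 by distance of the summit from the middle.

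**Figure D3:**
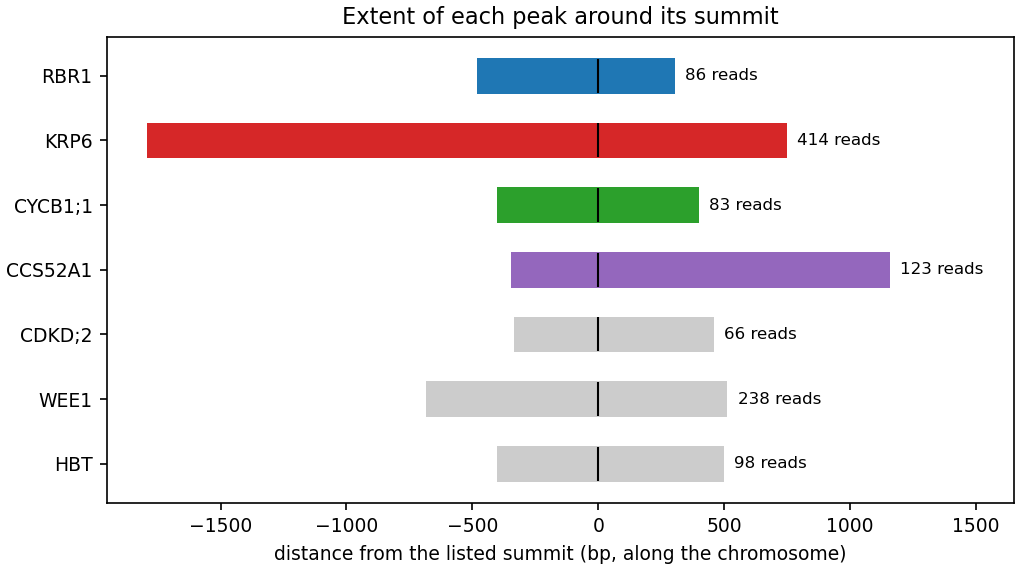
Bars show the extent of each peak along the chromosome, aligned on the listed summit (black tick, 0 bp), for the 4 named genes in colour and for CDKD;2, WEE1 and HBT in grey, with the reads of each peak printed at its end. The long arms of the KRP6 and CCS52A1 peaks point to opposite sides, 1790 bp before the summit in KRP6 and 1159 bp after it in CCS52A1.

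**Figure D4:**
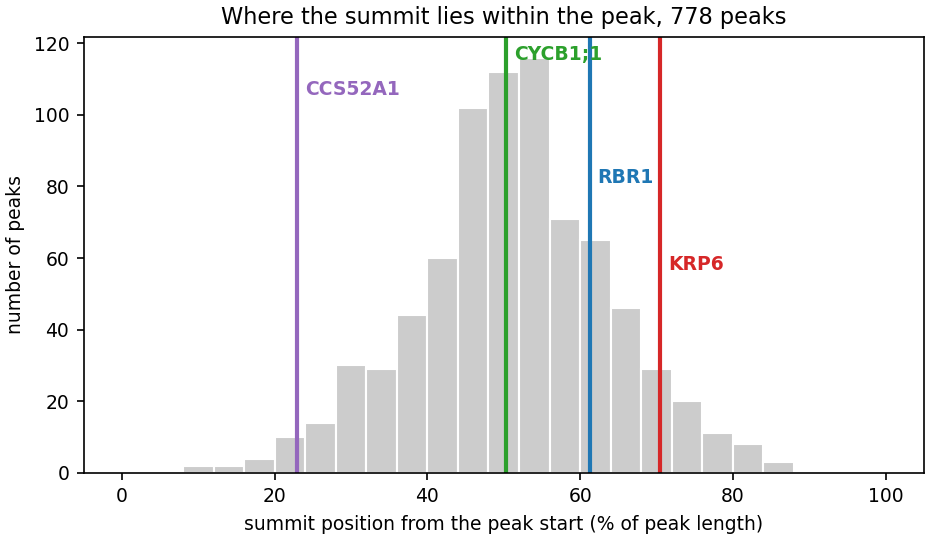
The histogram gives the number of peaks (vertical axis) by the position of the summit as a percentage of the peak length (horizontal axis) for all 778 peaks, with coloured lines at the 4 named genes. CYCB1;1 at 50.3% sits in the centre of the distribution, and CCS52A1 at 22.9% lies in its lower tail.

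The number and place of the neighbours named beside each gene differed. Gene order was taken from the TAIR10.1 gene table, among protein-coding genes. CCS52A1 was the only gene named for its peak, and neither of its adjacent genes, AT4G22900 and NYE1, was named. Of the 778 peaks, 199 named 1 gene and 176 named 3. As a share of all protein-coding loci, with or without a peak, 0.66% were the only gene named for a peak. CYCB1;1 was the middle of 3 consecutive genes named for its peak, between AT4G37483 and AT4G37500. KRP6 was the last of 3 consecutive genes, after RBP47B (AT3G19130), an RNA-binding protein, and DNF (AT3G19140), known from the control of flowering time. IPT8, the next gene on the other side, was not named.

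RBR1 was the outermost gene of its peak. The other 2 genes named there were BUG22 (AT3G12300) and AT3G12320, for which the gene table gives LNK3 as a synonym, and AT3G12290, which lies between RBR1 and BUG22, was not named. RBR1 was therefore 3 genes away from the far end of the named group. A protein-coding gene was likewise passed over in 123 of the 491 peaks with at least 2 named coding genes (25.1%). The list does not tell which of the named genes is the target of a shared peak.

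**Figure D5:**
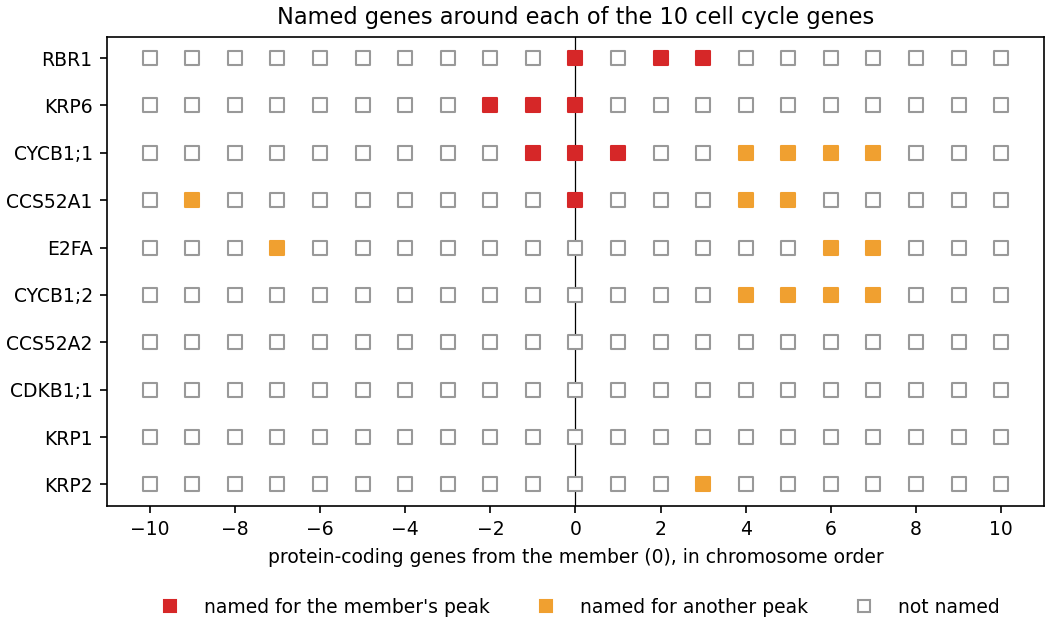
Squares are protein-coding genes in chromosome order, up to 10 on each side of each of the 10 cell cycle genes (position 0). Red squares were named for the same peak as the gene at position 0, orange squares for another peak, and open squares were not named; the row of RBR1 shows the unnamed gene at position 1, and the rows of CCS52A2, CDKB1;1 and KRP1 hold no named gene.

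The surroundings of the 4 peaks differed. CYCB1;1 lay in a dense stretch, with 6 other peaks within 100 kb, of 3.24 to 7.90-fold. The nearest, at AT4G37530, was 9.77 kb away and at 246 reads and 7.90-fold was stronger than that of CYCB1;1. CCS52A1 had 3 other peaks within 100 kb. One of them, 16.1 kb away and named for AGL19, a MADS-box factor, and AT4G22960, had 211 reads and 8.32-fold and was likewise stronger. KRP6 had 2 other peaks within 100 kb, both weaker at 3.95-fold and 4.62-fold, and RBR1 had 1, at 3.32-fold and 88.3 kb. The median over all peaks was 2 others within 100 kb, with the nearest at 36.7 kb.

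The unnamed relatives were compared through their distance, in protein-coding genes, to the nearest gene named for any peak. KRP2, a CDK inhibitor of the same family as KRP6, was the closest, 3 genes from DWF4, an enzyme of brassinosteroid synthesis with a peak of 6.66-fold and 65 reads. KRP1, another member of that family, was 15 genes from the nearest named gene, MYB70, at 5.29-fold. KRP6 itself, leaving out the genes of its own peak, was 17 genes from the nearest one. The median over 26075 unnamed protein-coding genes was 15.

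CYCB1;2, the sister cyclin of CYCB1;1, stood 4 genes from AT5G06190, which was named for a peak of 4.13-fold and 54 reads. CYCB1;1 stood as far, 4 genes, from the next peak that was not its own. CCS52A2, the paralogue of CCS52A1, was 64 genes from the nearest named gene, RHA1A, and 6.08% of unnamed protein-coding genes were as far or farther. CCS52A1 stood 4 genes from the next other peak. E2FA, an E2F factor that RBR1 binds, was 6 genes from TIM44-2, named at 4.76-fold, and 7 genes from EDA12, named at 3.30-fold on the other side. CDKB1;1, a plant-specific mitotic kinase, was 31 genes from AT3G54500, named at 4.80-fold.

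For the wider machinery, 78 genes were sorted by role, and 7 were named (8.97%, exact 95% interval 3.68 to 17.6), beside 4.99% of protein-coding loci. At the 389 strongest peaks by fold enrichment 4 of the 78 were named, KRP6, WEE1, CYCB1;1 and RBR1, beside 2.51% of protein-coding loci. The 78 genes include the 10 described here, and 4 of the 7 named were picked from this peak list. Because of that choice the interval is no yardstick for the difference from 4.99%, and nothing is read from either share. KRP6 was the 1 of 7 KRP inhibitors named. CYCB1;1 was the 1 of 9 B-type cyclins (exact 95% interval 0.281 to 48.2%), and 0 of 10 A-type and 0 of 10 D-type cyclins were named (0 to 30.8% for each). CYCB1;1 was picked from this peak list, so these intervals cannot compare the cyclin classes, and nothing is read from them. RBR1 was the 1 of 9 genes of RBR, E2F and DP factors, and CCS52A1 the 1 of 8 activators and inhibitors of the anaphase-promoting complex. Of the 3 MYB3R factors listed (MYB3R1, MYB3R3 and MYB3R4), which control mitotic genes, 0 were named. All counts by role cover the listed genes only, which need not be whole families.

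The other 3 named genes of these lists were WEE1, CDKD;2 and HBT. WEE1 (AT1G02970), a kinase that inhibits CDKs, had 238 reads and 9.93-fold on chromosome 1 from 672560 to 673756, at rank 24 by fold enrichment. It shared its peak with 3 other genes. CDKD;2 (AT1G66750), a CDK-activating kinase, was the only gene named for a peak of 66 reads and 3.95-fold on chromosome 1 from 24894437 to 24895230. HBT (AT2G20000), the CDC27b subunit of the anaphase-promoting complex, had 98 reads and 3.94-fold on chromosome 2 from 8637574 to 8638476, shared with AT2G20010. The Decibel Score of the HBT peak was 58.4, at rank 620 of 778. Of the 7 genes, KRP6 and WEE1 were the 2 at or above 9.93-fold, and the other 5 lay between 3.21-fold and 4.70-fold. Both of these strong peaks were shared with other genes, so neither can be assigned to KRP6 or WEE1 from the list.

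Of the 71 listed cell cycle genes without a peak, 8 stood next in order to a gene that was named (11.3%), beside 5.27% of all protein-coding genes that were not named. This count has no test and the lists were chosen with earlier results of these data known, so nothing is read from the difference. E2FC, an E2F factor that acts as a repressor, stood next to AT1G47885, named at a peak of 4.44-fold and 57 reads. CYCD3;3, a D-type cyclin, stood next to MYB77, named at 4.64-fold and 90 reads. CYCA2;3 and CYCA2;2, A-type cyclins, stood next to IAA5 (4.81-fold, 63 reads) and AT5G11290 (3.86-fold, 67 reads). OSD1, an inhibitor of the anaphase-promoting complex, stood next to SCE1, the SUMO-conjugating enzyme, at 3.74-fold and 61 reads. The complex's subunits APC11 and APC6 stood next to RCI2A (5.03-fold, 98 reads) and AT1G78780 (3.59-fold, 70 reads), and the kinase CDKF;1 next to ROP9 (3.51-fold, 64 reads). All 8 peaks lay between 3.51-fold and 5.03-fold, and the list names none of the 8 cell cycle genes for them.

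The FDR did not order the 4 peaks as the fold enrichment did. It was highest for KRP6, at 0.182, and lowest for CCS52A1, at 0.15. The number of peaks with a lower FDR was 744 for KRP6, 689 for CYCB1;1, 677 for RBR1 and 569 for CCS52A1. The range over the list was 0.116 to 1. For 764 of 778 peaks the FDR times the rank by Decibel Score was a whole number. At the highest ranks, such as 11 for KRP6, a value of that form changes in coarse steps. The FDR is therefore not read as an order of peak strength or reliability. Taken as a fraction, it was not below 0.116 for any peak. False peaks in the list, the 4 described here included, are thus not excluded.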

How the data were processed

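ChIP-seq was done on 2 samples, 1 per group, and 1 deposited peak list was analysed. CASAVA 1.8.2 and the build TAIR10 appear in the submitters' processing notes; the aligner, peak caller, control sample and cutoffs are not stated there or in the labels. Columns made by the authors, per the file headers, are a read count, a fold enrichment (a ratio with an unstated denominator), a Decibel Score (a score whose formula is not stated), an FDR taken as a fraction between 0 and 1, a length and a summit. The FDR was not treated as a q-value, since it was higher for KRP6 than for CCS52A1, which has the lower score. The FDR was read as a fraction because its product with the rank by score was whole, within 0.01, for 764 of 778 peaks. The read counts as deposited are not scaled, and library depth is unknown: 78249 reads lie in peaks. Lines with the same position were joined into 1 peak, and genes were read from the transcript column. Ranks, reads per kb, exact Poisson and Clopper-Pearson intervals (counting error only), gaps and gene order were computed. Python 3.11.15, pandas 2.3.3 and scipy 1.17.1 were used. The joining of lines, the rank by fold enrichment and the steps in gene order were tested on simulated data. The other measures were not. The TAIR10.1 gene table (1483 of 1513 named identifiers matched) served for names and gene order only. No test was made, as the design has no replicates. The genes, the lists of 78 genes and the measures were chosen with earlier results of these data known. Genes named in the text are the 10 loci, the genes sharing or flanking their peaks, and listed genes with a peak; the genes next in order to the 10 loci or to listed genes, and those nearest to an unnamed locus, were added after the values were seen. Alternatives were other peak thresholds, gene assignments and strength measures.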

Additional observations from a re-analysis of the deposited data

How the results depend on the processing

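With the 194 strongest peaks by fold enrichment, 1 of the 10 genes (KRP6) was named in place of 4, beside 1.3% of protein-coding loci, and with peaks that name 1 gene, 1 (CCS52A1). Of the 78 listed genes, 4 in place of 7 were named at the 389 strongest peaks and 2 at peaks that name 1 gene, where 2.51% and 0.66% of protein-coding loci were named. By reads per kb the rank moved to 122 for RBR1, 25 for KRP6, 164 for CYCB1;1 and 595 for CCS52A1. By read count it moved to 326 for CYCB1;1 and 146 for CCS52A1, and by Decibel Score to 461 for CCS52A1. These 11 of 20 alternative values moved by more than 1.5 times (counts) or beyond the exact binomial interval of the rank. That interval is a yardstick only, since a rank is not a count of independent trials. The other 9 did not move by that much, among them the 389 strongest peaks by either measure, with 3 of 10 genes. Merging peaks within 1000 bp is also among the 9. Such merging cannot change which genes are named, so its value was fixed in advance. Fewer peaks name fewer genes by construction, and the cause was otherwise not tested. The planned search of promoters for the SOG1 motif was not run. No paired analysis was possible because each group has 1 library. Depth is unknown, so the absence of a peak at a gene may also reflect detection, which was not tested.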
